A study of Homo sapiens with 6 samples.

Results

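Beta satellite is a family of tandem repeats of human heterochromatin, and 1601 of its loci outside chromosome 19 are described here. They were taken from a table of 9566 satellite loci as every row of the family BSR/Beta whose chromosome is not 19, with random and unplaced contigs included, which left out 383 of the 1984 Beta loci. The material was SW620, an established human line of metastatic colon cancer. It was sampled at 3 stages: in 2D culture (RPMI1640 with 10% FBS) before it was grafted, as a tumour under the skin of Nu/Nu mice, which lack T cells, and in 2D culture once more after the xenograft. At each stage RNA (TRIzol) and DNA (DNeasy kit) were sequenced by Helicos single-molecule sequencing, which reads molecules without amplification, RNA with a digital gene expression protocol and DNA with the platform's DNA protocol. The study followed satellite RNA and DNA as the same line moved between culture and xenograft. There was 1 library per group and no replicate, so every comparison is between single libraries and carries no p-value for the conditions.

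Beta satellite is built from short monomers in head-to-tail arrays. Its large arrays lie in the heterochromatin of the acrocentric short arms, of the pericentromeric regions of some other chromosomes and of the Y chromosome, and it also spreads in short blocks through clusters of zinc finger genes on chromosome 19. LSAU, another satellite, is found next to Beta arrays in acrocentric heterochromatin and in subtelomeric repeats. Satellite heterochromatin is known for low transcription in most normal cells and for RNA in some tumours. In the genome build of the table, hg19, the short arms of the acrocentric chromosomes carry no assembled sequence.

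Levels are in RPM, the reads of a locus for every 1000000 reads sequenced in its library. The table gives back whole reads, here called hits, and the RNA libraries came to 157326 reads before, 1077925 in the xenograft and 240046 after, against 3080853 to 4355426 reads in the DNA libraries. With 3 reads as the most that 0 hits allows, a locus without a hit had at most 19.1, 2.78 and 12.5 RPM in the RNA libraries and at most 0.689, 0.928 and 0.974 RPM in the DNA libraries. Intervals are 95% exact Clopper-Pearson or Poisson intervals on hits. They cover counting error only, and reads shared by several loci make them too narrow. Scaling to satellite loci instead of the library total (TMM, a trimmed mean of ratios) shifted every log2 ratio by −0.17 (RNA xenograft against before), −0.67 (RNA after against xenograft), −0.85 (RNA after against before), −3.04 (DNA xenograft against before), 0.06 (DNA after against xenograft) and −2.97 (DNA after against before).

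The 1601 loci lay on 15 placed chromosomes, 8 unplaced contigs and 2 random contigs, and their length ran from 13 to 14512 bases with a median of 442. Chromosome Y held 1282 of them, or 80.1%. Chromosome 7 held 112, chromosome 8 held 75 and chromosome 16 held 44. The unplaced contigs held 40 loci, 21 of them on chrUn_gl000225. Loci are named by their hg19 position. Whether SW620 carries a Y chromosome, and whether reads assigned to Y loci came from it, was not tested. In all 6 libraries together, 917 loci had at least 1 hit and 684 (42.7%) had none. The loci without a hit were shorter, with a median of 266.5 bases against 681 for those with one.

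The loci placed on the acrocentric chromosomes 13, 14, 15, 21 and 22 were to be compared with all others. They held almost none of the signal. Unplaced contigs, whose labels name no chromosome, were counted among the others. With no short-arm sequence in hg19, this comparison does not measure Beta satellite of the acrocentric short arms. Only 5 loci with 1129 bases were placed on the acrocentric chromosomes, 0.104% of the bases of all 1601 loci, and none on chromosome 21. These were chr13:114981351-114981581, chr14:95385355-95385470, chr15:28139732-28139948, chr15:28139968-28140375 and chr22:49799401-49799557, all on long arms. None had an RNA hit at any stage. The exact 95% upper limits of their share of the RNA hits were 5.78% before, 0.123% in the xenograft and 1.77% after. In DNA they had 1 hit before, 1 in the xenograft and 4 after. The hits were on chr13:114981351-114981581 (1 in the xenograft and 1 after) and on chr15:28139968-28140375 (1 before and 3 after). The DNA share was 0.0485% before (0.00123 to 0.270%), 0.00723% in the xenograft (0.000183 to 0.0403%) and 0.0308% after (0.00838 to 0.0787%). At the mean rate per base of the other loci, 14.4 DNA hits and 3.11 RNA hits would have fallen there in the xenograft, against 1 and 0 observed. That mean rate is led by long arrays, as loci of 5000 bases or more held 72.3% of the members' xenograft DNA hits. They had 19.5 RPM of DNA and 11.7 RPM of RNA per kb. Members under 500 bases had 0.470 and 0.654 RPM per kb, and the acrocentric loci had 116 to 408 bases. The gap to the mean rate therefore cannot be told apart from one of length. The DNA ratio of xenograft to the culture before was 1.35 at the acrocentric loci, with an interval from 0.0172 to 106 that holds the ratio of the other loci, so a difference between the classes was not detectable at this depth. No ratio could be formed for acrocentric RNA.

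Summed over all 1601 loci, Beta RNA was 394 RPM in the culture before (62 hits), 2775 RPM in the xenograft (2991 hits) and 858 RPM in the culture after (206 hits). The xenograft library stood highest and the culture after stood between the others. In such bulk samples, fewer cells carrying a transcript and less RNA per cell cannot be told apart. The xenograft level was 7.04 times that before (5.48 to 9.21), and the level after was 3.23-fold lower than in the xenograft (2.81 to 3.74). The culture after stood at 2.18 times the culture before (1.63 to 2.94), which shrank to 1.21 under TMM and 1.15 under size factors. Beta DNA was 473 RPM before (2060 hits), 4278 RPM in the xenograft (13823 hits) and 4221 RPM after (13004 hits). DNA was therefore high in both later libraries, at 9.04 (8.64 to 9.48) and 8.92 (8.52 to 9.35) times the culture before, and the ratio of after to xenograft was 0.987 (0.963 to 1.01). Scaled to satellite loci, the DNA ratio of xenograft to before was 1.10 with TMM and 1.02 with size factors. Under these scalings the sum of Beta DNA therefore moved by about as much as the satellite loci that set the scale. As a share of all satellite hits, Beta DNA was lower in the later libraries, at 5.54% before, 4.33% in the xenograft and 4.06% after. The share in RNA was 7.82%, 3.81% and 6.59%.

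These sums hid groups of loci that went in opposite directions. The groups below were drawn by location and by neighbouring satellites after values had been seen, so their ratios are descriptions and the differences between them were not tested. Within 10 kb of 40 of the 1601 loci lay an LSAU element. Of these 40 loci, 31 were among the 40 on unplaced contigs, 6 among the 7 on Y near 13.5 and 59.0 Mb, and the other 3 were the 2 loci of chromosome 10 and the 1 of chromosome 18. None of the 1275 other loci on Y and none of the 231 on chromosomes 7, 8 and 16 had LSAU that near. The 40 loci had a median length of 3978.5 bases, against 429 for the other 1561, and 18 of the 20 loci of 5000 bases or more were among them.

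The 40 loci near LSAU carried the RNA peak of the xenograft. Their RNA was 57.2 RPM before (9 hits), 2162 RPM in the xenograft (2331 hits) and 33.3 RPM after (8 hits). Both culture libraries were low and the xenograft was high, 37.8 times the culture before (19.9 to 82.8) and 64.9 times the culture after (32.9 to 150). The ratio of after to before was 0.583, with an interval of 0.196 to 1.70 that includes 1. Their share of all Beta RNA hits outside chromosome 19 was 14.5% before (6.86 to 25.8%), 77.9% in the xenograft (76.4 to 79.4%) and 3.88% after (1.69 to 7.51%). Their DNA was 210 RPM before (916 hits), 3596 RPM in the xenograft (11619 hits) and 3402 RPM after (10480 hits). DNA in the xenograft was 17.1 times that before (15.98 to 18.3), which became 2.09 with TMM and 1.92 with size factors, and stayed high after the xenograft, at 0.946 of the xenograft level (0.921 to 0.971). Their DNA share went from 44.5% to 84.1% and 80.6%.

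The summed RNA of the other 1561 loci had no peak in the xenograft, although single loci among them did. Their RNA was 337 RPM before (53 hits), 612 RPM in the xenograft (660 hits) and 825 RPM after (198 hits), lowest in the first library and highest in the last. The ratio of xenograft to before was 1.82 (1.37 to 2.45), and that of after to xenograft was 1.35 (1.14 to 1.58). The latter became 0.844 under TMM and 1.01 under size factors, so its direction depends on the scaling. Their DNA was 263, 682 and 819 RPM, 2.60-fold higher in the xenograft than before (2.42 to 2.79). The locus chrY:58983271-58997782, described below, held 136 of the 660 xenograft RNA hits and 548 of the 2204 xenograft DNA hits of these 1561. Relative to satellite loci as a whole that DNA ratio of the group was below 1, at 0.317 with TMM and 0.292 with size factors.

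**Figure D1:**
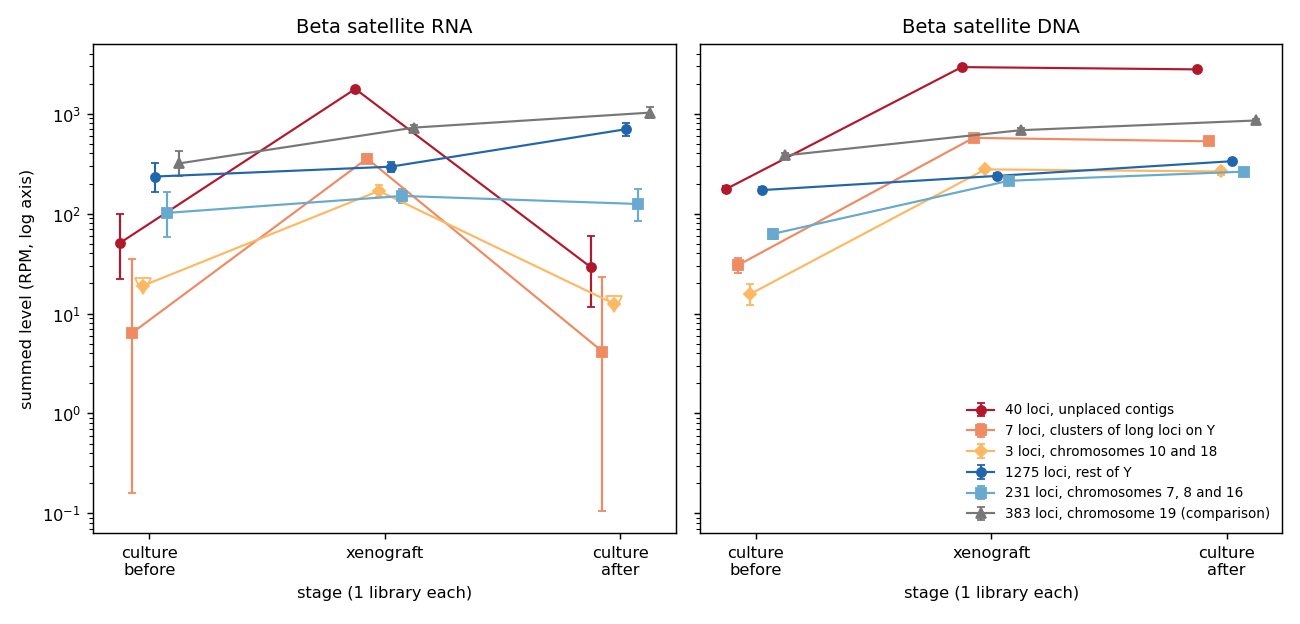
Summed RNA (left) and DNA (right) of Beta satellite loci by location at the 3 stages, in RPM on a log axis, 1 library per point. Bars are 95% Poisson intervals of the hits, and open triangles mark 0 hits, drawn at the limit of 3 reads. In RNA the unplaced contigs, the clusters of long loci on Y (near 13.5 and 59.0 Mb) and chromosomes 10 and 18 were high in the xenograft and low in both cultures, while the rest of Y was highest in the culture after at 700 RPM. In DNA the same 3 groups were high in both later libraries.

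**Figure D2:**
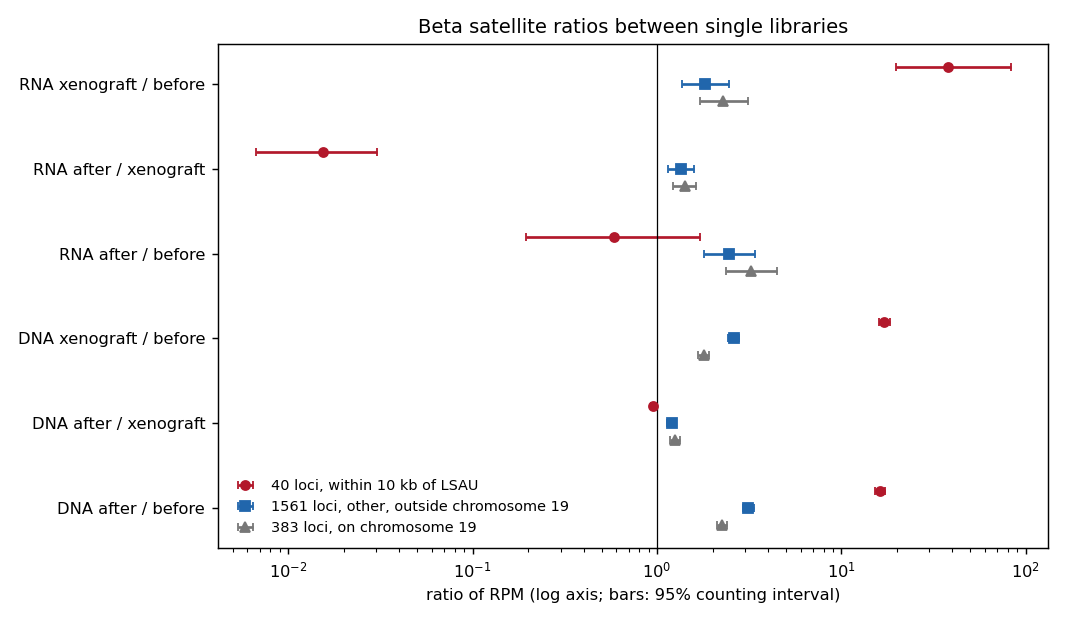
Ratio of RPM between libraries on a log axis for the 40 loci within 10 kb of LSAU, the 1561 other loci outside chromosome 19 and the 383 Beta loci of chromosome 19. Bars are 95% counting intervals, and the line marks a ratio of 1. The loci near LSAU stand apart from the other Beta loci at 37.8 for RNA in the xenograft against before and at 0.0154 for RNA after against xenograft.

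The unplaced contigs gave most of that signal. Over their 40 loci RNA was 50.8 RPM before, 1770 RPM in the xenograft and 29.2 RPM after, and DNA was 177, 2928 and 2778 RPM. RNA in the xenograft was 34.8 times the culture before (17.6 to 80.7) and the culture after was 60.7-fold lower than the xenograft (29.4 to 151). DNA was 16.6 times higher in the xenograft than before (15.4 to 17.8), 2.02 times under TMM. The contig chrUn_gl000225 alone, with 21 loci, had 7 RNA hits before, 1302 in the xenograft and 5 after, and its DNA hits were 557, 6598 and 5931. On chrUn_gl000216, with 8 loci, RNA hits were 1, 471 and 2 and DNA hits were 152, 2154 and 1942. The single locus of chrUn_gl000228, chrUn_gl000228:114593-121067, had 0, 122 and 0 RNA hits and 53, 615 and 571 DNA hits. All 3 contigs showed RNA high only in the xenograft library and DNA high in both later ones. The 4 loci of chrUn_gl000222, with no LSAU nearby, had 1 DNA hit before, 21 in the xenograft and 19 after, and 0, 4 and 0 RNA hits.

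Placed loci with the same course lay at chromosome ends and on Y. The locus chr18:105674-111670, near the end of the short arm, had 0 RNA hits before, 137 in the xenograft (127 RPM) and 0 after. By the 95% limit its RNA was at least 5.35-fold higher in the xenograft than before, or 6.67-fold with 3 hits in place of 0. Against the culture after it was at least 8.16-fold higher by the 95% limit, or 10.2-fold with 3 hits in place of 0. Its DNA was 11.5 RPM before, 213 RPM in the xenograft and 202 RPM after, an 18.5-fold difference between the first pair (13.9 to 25.2). The 2 adjacent loci at the end of the long arm of chromosome 10, chr10:135499164-135500000 and chr10:135500001-135502705, together had 0, 45 and 0 RNA hits and 18, 209 and 193 DNA hits. On Y, the 6 loci between 13459800 and 13490110 had 1, 248 and 1 RNA hits and 82, 1304 and 1156 DNA hits. The longest locus of all, chrY:58983271-58997782 with 14512 bases, had 0, 136 and 0 RNA hits and 51, 548 and 475 DNA hits. Its RNA was at least 5.31-fold higher in the xenograft than before by the 95% limit, or 6.62-fold with 3 hits in place of 0. Together these 7 Y loci had 6.36, 356 and 4.17 RPM of RNA, so chromosome Y held loci of both kinds.

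The loci given next are parts of these sums, from the same libraries, and are not replicates. The member locus highest in xenograft RNA was chrUn_gl000225:10354-22564, of 12211 bases, with 2 RNA hits before, 146 in the xenograft (135 RPM) and 0 after, and 51, 675 and 607 DNA hits. Next came chrUn_gl000225:126205-135104, with 2, 140 and 0 RNA hits and 51, 656 and 608 DNA hits, and chrUn_gl000216:158140-166242, with 0, 139 and 2 RNA hits and 45, 692 and 602 DNA hits. The locus highest in xenograft DNA was chrUn_gl000225:115786-126192, with 64 DNA hits before, 694 in the xenograft (215 RPM) and 647 after, and 0, 134 and 2 RNA hits. In all of these the RNA of both cultures was at or under the 3-read limit. Of the 40 loci near LSAU, 33 had 0 RNA hits before and 34 had 0 after, while 4 had 0 in the xenograft. Among the 29 of them with 1000 bases or more, xenograft RNA ran from 16 to 146 hits, with a median of 68, or 7.69 to 21.2 RPM per kb. Xenograft DNA ran from 10.4 to 35.5 RPM per kb.

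RNA was set against DNA from the same stage, as a ratio of RPM. Near LSAU the ratio was 0.272 before, 0.601 in the xenograft (0.575 to 0.629) and 0.00980 after. DNA of these loci after was close to that in the xenograft, at 0.946 of it, while RNA was 64.9-fold lower, so the ratio differed by far more than its counting error between those stages. Over the 29 loci with 1000 bases or more the xenograft ratio ran from 0.461 to 0.812, with a median of 0.602. Over all 39 with a DNA hit it ran from 0.0 to 0.812, with a median of 0.598. Over the 39 loci near LSAU with a hit in either xenograft library, RNA and DNA had a Spearman rho of 0.982, and 0.849 per kb. These points share the libraries, reads with several matches and the length of the locus, so the correlation is a description. For the 592 other loci with a hit, 245 of them with an RNA hit in the xenograft, Spearman rho was 0.0586 and −0.19 per kb, while Pearson r was 0.958, against 0.988 near LSAU. Most of these loci had few reads, which limits a rank correlation. Among them was chrY:58983271-58997782, with 136 RNA and 548 DNA hits in the xenograft, and Pearson r without it was not computed. Over the 405 loci with a hit on the rest of Y, Pearson r was 0.748 and Spearman rho −0.224. The RNA to DNA ratio of the other loci was 1.28 before, 0.898 in the xenograft and 1.01 after. The part of DNA molecules in the RNA libraries was not tested.

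**Figure D3:**
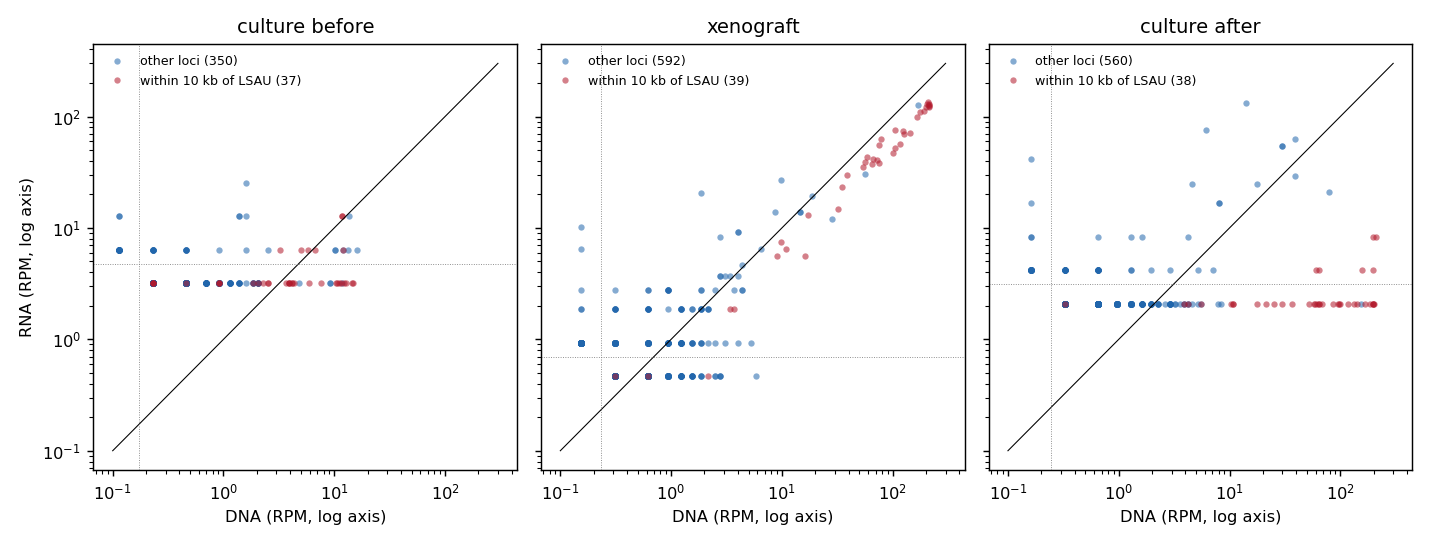
RNA against DNA of each Beta locus at the 3 stages, in RPM on log axes, for loci with a hit in either library of that stage. The diagonal marks equal RPM, and values of 0 are drawn below or left of the dotted lines at the level of 0.5 reads. Loci within 10 kb of LSAU (red) run along the diagonal in the xenograft, at a summed RNA to DNA ratio of 0.601, and lie at high DNA with few or no RNA hits in the culture after.

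The 1275 remaining loci of Y went the other way after the xenograft. They form clusters near 7.7, 23.1, 25.0 and 26.6 Mb with a single locus near 10.0 Mb, and their median length was 402 bases. RNA was 235 RPM before (37 hits), 295 RPM in the xenograft (318 hits) and 700 RPM after (168 hits), highest in the culture after. The ratio of after to xenograft was 2.37 (1.96 to 2.87), and it stayed above 1 with TMM (1.49) and size factors (1.78). The ratio of xenograft to before was 1.25, with an interval of 0.891 to 1.81 that includes 1. After against before, RNA was 2.98 times higher (2.07 to 4.37), or 1.65 times with TMM. DNA was 172, 239 and 335 RPM, 1.39 times higher in the xenograft than before (1.25 to 1.54) and 1.40 times higher after than in the xenograft (1.28 to 1.54). Under TMM the first of these DNA ratios was 0.169, so DNA of these loci was far lower relative to satellite loci as a whole in the xenograft than before.

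All 4 larger clusters on Y had a higher RNA level in the culture after than in the xenograft. Near 7.7 Mb, with 528 loci, the RNA hits were 16 before, 130 in the xenograft and 66 after, a ratio of after to xenograft of 2.28 (1.67 to 3.09). Near 23.1 Mb, with 54 loci, they were 3, 18 and 20, a ratio of 4.99 (2.51 to 10.0), while the DNA hits were 32, 21 and 18. Near 25.0 Mb, with 231 loci, they were 6, 64 and 30, a ratio of 2.10 (1.32 to 3.30). Near 26.6 Mb, with 461 loci, they were 12, 105 and 52, a ratio of 2.22 (1.56 to 3.13). Some loci near 25.0 Mb held the same values in all libraries as loci near 26.6 Mb, so hits may be counted in both clusters. TMM shifts each of these RNA ratios by −0.67 in log2. DNA was higher after than in the xenograft near 25.0 Mb (1.58, 1.31 to 1.91) and 26.6 Mb (1.47, 1.27 to 1.70), and also near 7.7 Mb (1.23, 1.04 to 1.47). Near 23.1 Mb the ratio was 0.899, with an interval of 0.452 to 1.77 from 21 and 18 hits that holds those of the other clusters.

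A few loci led the RNA assigned to Y. The locus chrY:8182036-8182392, of 357 bases, had 1 RNA hit before (6.36 RPM), 29 in the xenograft (26.9 RPM) and 32 after (133 RPM), and 52, 32 and 43 DNA hits. It was the highest member in RNA after the xenograft, with 32 of the 168 hits of its group. The locus chrY:7932442-7933023 had 4, 22 and 18 RNA hits (25.4, 20.4 and 75.0 RPM) and few DNA hits, at 7, 6 and 19. It was the highest member in RNA before xenografting and the only one to reach 20 RPM there. The locus chrY:25106043-25106723 had 1, 21 and 15 RNA hits and 58, 60 and 120 DNA hits. The loci chrY:26739787-26740466 and chrY:27221920-27222599, on opposite strands, held the same values in all libraries, 1, 15 and 13 RNA hits and 44, 47 and 92 DNA hits. Their reads cannot be told apart. The locus chrY:23164256-23164571 had 2, 11 and 10 RNA hits and no DNA hit in any library, which allows up to 0.974 RPM of DNA in the culture after, against 41.7 RPM of RNA.

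Chromosomes 7, 8 and 16 held 231 loci of intermediate behaviour. Their RNA was 102 RPM before (16 hits), 150 RPM in the xenograft (162 hits) and 125 RPM after (30 hits). The ratios of 1.48 for xenograft to before (0.883 to 2.65) and 0.832 for after to xenograft (0.544 to 1.23) both had intervals that include 1. Their DNA was 62.9, 213 and 263 RPM, 3.39 times higher in the xenograft than before (2.94 to 3.91), or 0.413 with TMM. The locus with the most RNA was chr7:64071165-64078105, of 6941 bases, with 2, 33 and 5 RNA hits and 59, 180 and 241 DNA hits. It was the 1 long locus with no satellite of another family within 10 kb and had the lowest DNA ratio of the 20 long loci, 4.11 against 11.2 to 27.8 for the other 19. The neighbouring locus chr7:64061277-64063449 had 1, 13 and 7 RNA hits and led all members in DNA before, with 70, 92 and 121 hits.

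The 22 loci of the 2 random contigs had 0, 32 and 0 RNA hits, and their DNA was 5.51, 39.3 and 42.2 RPM, 7.13 times higher in the xenograft than before (4.58 to 11.5). The 4 loci near 75.7 Mb on chromosome 3 had 1, 20 and 18 DNA hits, close to the values on chrUn_gl000222. Of these, chr3:75697542-75698907, with 1, 14 and 9 DNA hits, held the same values in all libraries as chrUn_gl000222:103876-105241. Reads of that pair cannot be told apart. DNA was lower in the later libraries at chr9:110269933-110270069, of 137 bases, with 40 hits (9.18 RPM) before, 1 in the xenograft and 0 after. The same held at chrY:7892697-7893417, with 40, 2 and 1 DNA hits and no RNA hit. These were singled out after their values were seen, as the only members past the count test described next with lower DNA after the culture before. The 11 remaining loci, on chromosomes 1, 2 and 5 and near 96.8 Mb on chromosome 3, had no RNA hit.

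Locus by locus, 2-fold differences were counted on log2(RPM + 5) among members with at least 20 RPM in either library. This minimum was reached mostly in the later libraries, so a difference is likely by that choice, and the counts are read against the same rule over all satellite loci. In RNA, 31 of 32 members were higher in the xenograft than before and 0 lower, against 89.1% and 1.06% of all loci. In the culture after against the xenograft, 29 of 39 were lower and 8 higher, against 69.2% and 18.2%. Of the 8 higher members 2 had reached the minimum in the xenograft, and the others passed it through the culture after. After against before, 8 of 10 were higher and 0 lower, against 71.7% and 7.59%. In DNA, 31 of 32 were higher in the xenograft than before and 0 lower, against 89.6% and 2.03%, and after against before 36 of 36 were higher and 0 lower, against 92.2% and 1.74%. After against xenograft no member differed 2-fold in DNA, against 0.0% of all loci in each direction. The median log2 ratios of members and of all loci were 3.17 and 2.98 for RNA in the xenograft against before, −3.28 and −2.67 for after against xenograft, and 1.50 and 1.75 for after against before. In DNA they were 3.25 and 2.76, −0.08 and 0.08, and 3.10 and 2.75. The members' shares lay within 10 percentage points of the background in every comparison.

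An exact conditional binomial test of the hits, with Benjamini-Hochberg adjustment over all satellite loci, compares the 2 libraries and not the conditions. For RNA in the xenograft against before it called 19 of 300 members tested higher and 0 lower, against 3.69% and 0.0% of all loci. For RNA after against xenograft it called 27 of 320 lower and 7 higher, against 4.85% and 1.18%. Of the 27, 26 were near LSAU, and of the 7 none was: 6 lay on Y and 1 was chr7:63745920-63747012, with 1, 3 and 6 RNA hits. After against before it called only chrY:8182036-8182392 higher and none lower among 106, against 4.32% and 0.341%. In DNA it called 67 of 693 members higher and 2 lower in the xenograft than before, against 43.8% and 0.563%, and 75 of 718 higher and 2 lower after against before, against 42.1% and 0.593%. Of those 67, 37 were near LSAU and 30 were not. The group near LSAU was drawn after values had been seen. It held 77.9% of the members' RNA hits and 84.1% of their DNA hits in the xenograft. Its loci thus had more hits with which to be called, and these splits are descriptions. After against xenograft it called 3 of 775 higher in DNA and 0 lower, against 0.541% and 0.278%. The 3 were chrY:25106043-25106723 and the pair of identical loci at 26739787 and 27221920. The share of members called in DNA against the culture before was well under that of all loci. Such a share depends on the hits per locus as well as on the ratio. The 1601 members held 4.33% of the xenograft DNA hits of all 9566 satellite loci, so the lower share cannot be read as smaller ratios alone.

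Beta satellite of chromosome 19 was the nearest comparison. Its 383 loci had 318, 726 and 1025 RPM of RNA and 383, 684 and 856 RPM of DNA. The RNA ratio of xenograft to before was 3.08 times larger outside chromosome 19 than on it (2.06 to 4.58), and the ratio of after to xenograft was 4.56 times smaller (3.71 to 5.61). For after against before the ratio of the ratios was 0.675, with an interval of 0.435 to 1.05 that includes 1. In DNA the ratio of xenograft to before was 5.06 times larger outside chromosome 19 (4.67 to 5.48). These ratios of ratios do not depend on the scaling between libraries. On chromosome 19 the RNA ratios were 2.29 for xenograft to before (1.72 to 3.11) and 1.41 for after to xenograft (1.22 to 1.63), and the 1561 loci not near LSAU had overlapping intervals around 1.82 and 1.35. In DNA the ratio of xenograft to before was 1.79 on chromosome 19 (1.68 to 1.91), below the 2.60 of those 1561 loci. Against the alpha satellites (ALR/Alpha), the main repeats of centromeres, the RNA ratio of xenograft to before was 0.317 as large in Beta outside chromosome 19, and the DNA ratio 0.669 as large. On the unplaced contigs alone they were 1.57 (0.786 to 3.67) and 1.22 (1.14 to 1.32) times those of alpha. The RNA ratio of after to xenograft there was 0.146 of that of alpha (0.0585 to 0.302). Alpha RNA was 2371, 52602 and 5932 RPM, and RNA of HSATI, another satellite family, was 0, 192 and 4.17 RPM. A course of RNA high in the xenograft was thus not particular to Beta. LSAU elements themselves had few RNA hits, 3 before, 50 in the xenograft and 9 after over 129 loci. In RPM their RNA was 19.1, 46.4 and 37.5 and their DNA was 16.3, 59.4 and 53.2. Their RNA to DNA ratio was 0.781 in the xenograft (0.560 to 1.07) and 0.704 after (0.316 to 1.37). At the Beta loci near LSAU the ratio after was 0.00980. These LSAU sums cover the whole family, and the elements within 10 kb of Beta loci were not summed apart.

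Length moved with these differences. The 20 loci of 5000 bases or more had 50.8, 1858 and 45.8 RPM of RNA and a DNA ratio of xenograft to before of 15.9 (14.8 to 17.1). Just inside this limit, chrUn_gl000225:2570-7594 with 5025 bases had 0, 51 and 0 RNA hits, and just outside it chrUn_gl000216:140866-145661 with 4796 bases had 1, 82 and 0. DNA hits before and in the xenograft were 18 and 325 for the first and 25 and 336 for the second, so the limit separated loci of like values. Among loci under 5000 bases, the 22 near LSAU still had a DNA ratio of 17.7 (15.2 to 20.8) and RNA 55.3-fold lower after than in the xenograft (15.2 to 458). The 1559 others had a DNA ratio of 1.92 (1.78 to 2.09) and RNA 1.77 times higher after (1.49 to 2.09), or 1.11 times with TMM. The locus chr7:63835973-63840397, with 4425 bases and no LSAU nearby, had 0, 4 and 0 RNA hits and 4, 9 and 9 DNA hits.

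**Figure D4:**
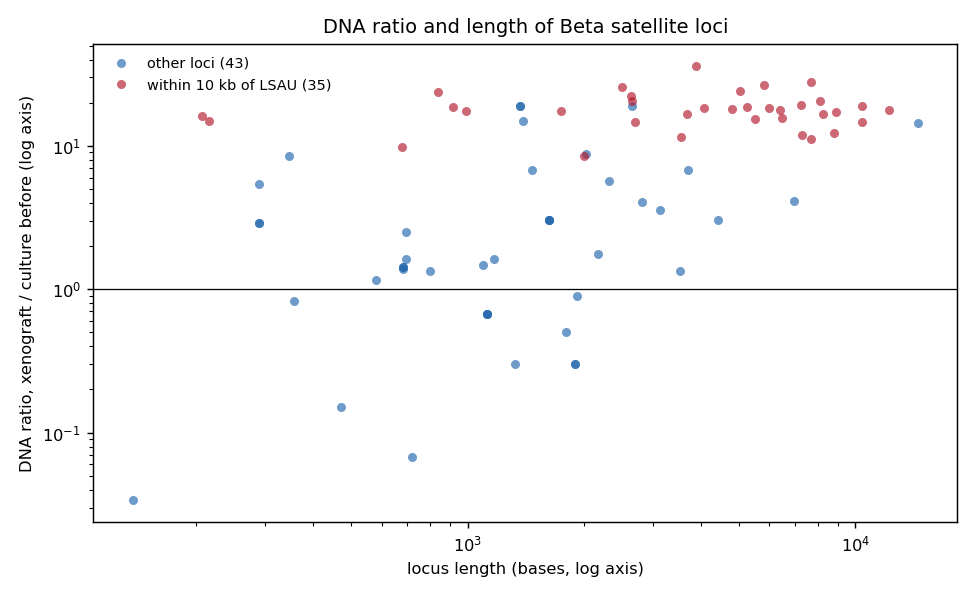
DNA ratio of xenograft to the culture before against locus length, both on log axes, for the 78 loci with hits in both libraries and at least 10 in all. Loci within 10 kb of LSAU (red, 35 loci) lie between 8.46 and 36.2, and the 43 others (blue) between 0.0337 and 18.9 with a median of 1.77. The line marks equal RPM. Near LSAU 2 loci of 149 bases, with ratios of 1.35 and 2.70 from 1 hit each before, had too few hits to be drawn.

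Several loci may report the same reads. Of the 246 members with 5 or more hits, 94 (38.2%) held values identical to another member in all 6 libraries, in 33 groups of up to 5 loci. Of these groups, 20 with 59 loci lay wholly on Y. Values of such loci are uncertain as to which copy gave the reads, and sums over a group of loci can count these reads more than once. On the unplaced contigs the summed hits were the same with identical loci within that group counted once, 8, 1908 and 7 in RNA. Across groups, chrUn_gl000222:103876-105241 matched chr3:75697542-75698907, and chrUn_gl000219:27295-28988 matched chr7:56728754-56732315. Counted once, the Y loci outside the clusters of long loci had 30, 269 and 149 RNA hits and 579, 621 and 828 DNA hits. Their RNA ratio of after to xenograft was then 2.49 (2.02 to 3.05). Counting once finds only loci with identical values, so it cannot show whether similar arrays share a part of their reads. The 8 loci near LSAU with 600 or more xenograft DNA hits had 615 to 694 of them at lengths of 5997 to 12211 bases. Sharing of reads between them was not tested.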

How the data were processed

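The authors deposited 1 table in RPM with 1 row per satellite locus and 1 column per library, with hg19 coordinates per the submitters' processing notes. The sources used here do not give the aligner, the strand rule or how reads with several matches and mouse reads were treated. The deposited RPM gave back whole reads, with 100% of values whole within 0.01 reads. Sums over loci were compared as ratios with exact conditional binomial intervals. Single loci were named by rule: the 5 highest and 5 lowest log2(RPM + 5) ratios per comparison among members at 20 RPM or more in either library, the 5 highest per library, and sums per chromosome. Of these, a selection is printed. Loci were grouped into clusters by gaps of 1000000 bases. Alternatives were TMM (edgeR 4.0.16), size factors (DESeq2 1.42.0), a pseudocount of 1, other minimums, an exact conditional binomial count test at an adjusted p of 0.05, identical loci counted once, and leaving out loci. Python 3.11.15, NumPy 2.4.6, pandas 2.3.3, SciPy 1.17.1, matplotlib 3.10.9 and R 4.3.3 were used. Members and lists were chosen with earlier results of these data known. Locus sequences were not used here.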

Additional observations from a re-analysis of the deposited data

How the results depend on the processing

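Ratios here are for the 1596 loci not placed on the acrocentric chromosomes, unplaced contigs included. The RNA ratio of xenograft to before, 7.04, was 4.94 with size factors, 2.93 without unplaced contigs, 2.67 without loci of 5000 bases or more, 1.70 without both, and 13.9 without Y. The RNA ratio of after to xenograft, 0.309, was 0.194 with TMM, 0.232 with size factors, 0.262 with identical loci counted once, 0.825 without unplaced contigs, 0.886 without long loci and 0.0726 without Y. It reversed to 1.46 without both unplaced contigs and long loci, a setting that by construction leaves out most, but not all, of the arrays near LSAU. The RNA ratio of after to before, 2.18, was 1.21 with TMM, 1.15 with size factors and 1.01 without Y. The DNA ratio of xenograft to before, 9.05, was 1.10 with TMM, 1.02 with size factors, 10.6 with identical loci counted once, 9.77 with those of 5 or more hits counted once, 4.56 without unplaced contigs, 4.26 without long loci, 2.52 without both and 12.8 without Y. The DNA ratio of after to before, 8.93, was 1.14, 1.05, 10.4, 9.59, 4.87, 4.63, 2.98 and 12.4 under the same settings in that order. The DNA ratio of after to xenograft, 0.986, was 1.03 with TMM and with size factors, 1.07 without unplaced contigs, 1.09 without long loci and 1.18 without both. The acrocentric DNA share after, 0.0308%, was 0.0900% without unplaced contigs. Settings that left out long loci, Y, or both long loci and unplaced contigs, and the counting once of identical loci with 5 or more hits, were chosen after seeing the data.

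Counts of loci 2-fold higher in RNA in the xenograft than before were 31, and 19 in the count test. Lower counts were 0, but 1 at a minimum of 10 RPM and 20 with none. For RNA after against xenograft, 8 higher became 5 with TMM. For RNA after against before, 8 higher became 15 with no minimum, 4 with TMM, 4 with size factors and 1 in the count test, and 0 lower became 2 at 10 RPM and 32 with no minimum. For DNA in the xenograft against before, 31 higher became 14 with TMM, 0 with size factors and 67 in the count test, and 0 lower became 7 with TMM, 2 with no minimum and 2 in the count test. For DNA after against before, 36 higher became 13, 0 and 75, and 0 lower became 7, 2 and 2, under the same settings. For DNA after against xenograft, 0 higher became 1 with a pseudocount of 1 and 3 in the count test. The cause of these moves was not tested. No paired analysis was possible because each group has 1 library. The RNA library before, with 62 hits at all members, limits every RNA comparison with it.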
